A study of Homo sapiens with 9 samples.

Results

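The 10 genes described here belong to intestinal triglyceride handling and were followed in Caco-2 cells given a red food dye or its parent pigment: the lipins LPIN1, LPIN2 and LPIN3, the acyltransferases DGAT1 and MOGAT2, the fatty acid genes SLC27A4, ACSL5, FABP1 and FABP2, and the lipid droplet gene PLIN2. They are 10 of the 28395 genes in the count files, found there by NCBI Gene ID. All 10 passed the filter on low counts, which 16017 genes passed. LPIN3 was selected on its counts in these same libraries, which were lower in both treated groups than in the control, so its values are given as a description with no test. The other 9 were picked for their role, with earlier results of these data known, and were tested. The tests make no allowance for that.

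The cells were differentiated Caco-2, a line from a human colon tumour whose layers resemble enterocytes, with the genotype given as WT, and all groups shared the line and the medium. Cells were exposed for 24 h to 10 µM carmine or to 20 µM carminic acid, control cells had plain medium, and 3 samples per group were sequenced as total RNA. Carminic acid is the anthraquinone pigment of cochineal insects, and carmine is the pigment bound to aluminium. The compounds thus differ in the metal and, here, in concentration. Samples of a group are lettered A, B and C, and no label says whether they are separate cultures. The p-values therefore reflect the spread among these samples alone, which may be technical.

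Enterocytes take up the fatty acids and monoacylglycerol of a meal and rebuild triglyceride from them at the endoplasmic reticulum. In the monoacylglycerol route MOGAT2 adds an acyl chain to monoacylglycerol to give diacylglycerol. In the glycerol phosphate route, lipins remove the phosphate of phosphatidic acid to give the same diacylglycerol, which also feeds phospholipid synthesis. Diacylglycerol acyltransferases then close the molecule to triglyceride, which is stored in droplets coated by perilipins or exported in chylomicrons.

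The 3 lipins share a magnesium-dependent phosphatase domain, and the coding stretch around its catalytic aspartates is shown because the counts of these paralogs are set against each other below. Sequences are from the GENCODE v29 transcripts on GRCh38, written 5′ to 3′ on the coding strand, with the 15 bases of the catalytic motif in capitals. Each stretch of 57 bases joins 2 exons, so the coordinates span an intron.
LPIN1 (chr2:11804528-11805082, plus strand, exons 17 and 18): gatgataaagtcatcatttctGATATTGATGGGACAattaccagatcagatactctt
LPIN2 (chr18:2923849-2924441, minus strand, exons 15 and 16): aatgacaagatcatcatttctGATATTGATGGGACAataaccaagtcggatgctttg
LPIN3 (chr20:41357145-41357373, plus strand, exons 15 and 16): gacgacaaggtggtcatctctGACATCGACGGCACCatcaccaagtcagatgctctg
LPIN1 and LPIN2 have the same 15 motif bases, and LPIN3 spells the motif with other codons. Over the 57 bases LPIN1 and LPIN2 were identical at 80.7% of positions, LPIN2 and LPIN3 at 75.4% and LPIN1 and LPIN3 at 71.9%. The longest exact run that any pair of these transcripts shared was 28 bases, between LPIN1 and LPIN2. LPIN2 and LPIN3 shared at most 23 bases.

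Total counts ran from 54871018 to 57581301 per library. Of 8 enterocyte and Caco-2 markers 7 passed the filter, with a summed level of 4754 to 5284 CPM (counts scaled to a common library size) over all groups, and KRT20 was at 0 counts. Of 5 adipocyte markers 3, LEP, LPL and CIDEA, were at 0 counts and ADIPOQ had 8 counts in all libraries together, while PLIN1 passed the filter with 439. The 5 hepatocyte markers all passed, with summed levels of 359 to 433 CPM, as did 4 of 6 stromal, endothelial and immune markers, with 110 to 160 CPM, and 3 of 5 goblet and secretory markers, with 23.8 to 39.3 CPM. In control, CPS1 at 292 CPM and ASGR1 at 90.0 held most of the hepatocyte sum. ALB stood at 5.08, TAT at 1.41 and CYP3A4 at 0.797. COL1A1, at 126 CPM in control, held most of the stromal, endothelial and immune sum. DCN had 5 counts and PTPRC 8 in all libraries together. The part of these markers in the results was not tested. In the first principal component carmine library C stood apart, at 34.5 against -19.4 to 14.5 in the others, and its deviation from the mean of all libraries had a Spearman correlation with GC content across genes of 0.50, within a range over the 9 libraries from -0.51 in control C to 0.56 in carminic acid B. The share of counts on mitochondrial genes was 2.30% ± 0.308 in control (SD, n = 3), 1.19% ± 0.185 with carmine and 1.60% ± 0.433 with carminic acid.

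LPIN3 had the lowest control-relative level of the 10 genes in both treated groups. LPIN3 (chr20:41340821-41360582) encodes a lipin known from the gastrointestinal tract and liver. In control libraries A, B and C it stood at 214, 236 and 195 CPM after scaling by the trimmed mean of M-values (TMM). With carmine it stood at 166, 138 and 168 CPM, and with carminic acid at 168, 189 and 171 CPM. Every treated library was below every control library, the closest being 189 with carminic acid and 195 in control, and library B was the highest of its group in control and carminic acid but the lowest with carmine. The means were 215 ± 20.4 CPM in control, 157 ± 17.0 with carmine and 176 ± 11.3 with carminic acid (SD, n = 3). The fitted log2 fold change was -0.45 (SE 0.09) with carmine, a level 0.731 times the control, and -0.29 (SE 0.09) with carminic acid, a level 0.820 times the control. Both comparisons use the same 3 control libraries. In bulk RNA, fewer cells that make a transcript and less of it per cell cannot be told apart, for this and every gene below.

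**Figure D1:**
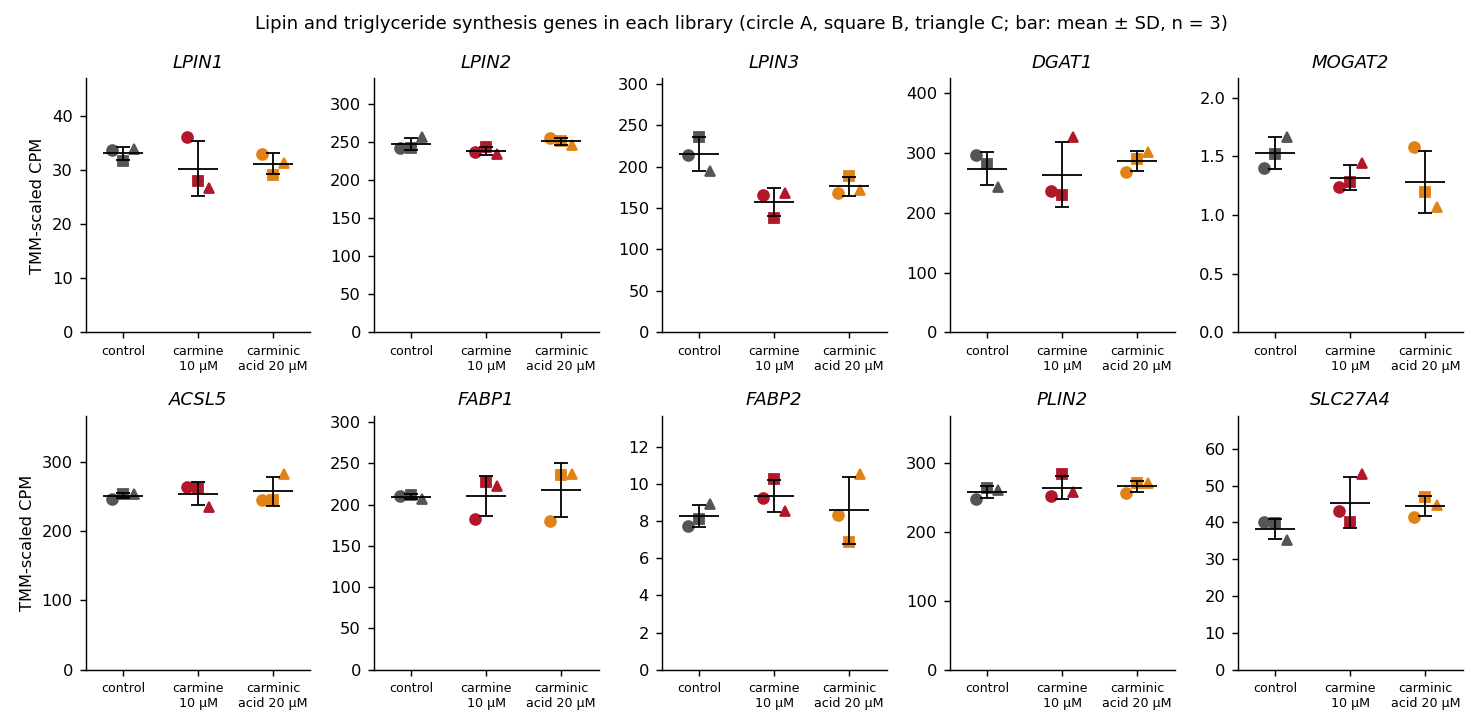
Level of each of the 10 genes in each library, in TMM-scaled CPM on axes that start at 0, with circles for library A, squares for B and triangles for C, and a line and bar for the mean ± SD (n = 3). LPIN3 is the panel in which all 6 treated libraries, 138 to 189 CPM, lie below the 3 control libraries, 195 to 236 CPM. In the DGAT1 and SLC27A4 panels the highest point is carmine library C.

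Values of LPIN3 under other settings describe the same libraries that led to its choice, so their sign carries no further evidence. With mitochondrial genes removed from the counts and library sizes, the log2 fold changes of LPIN3 were -0.45 with carmine and -0.29 with carminic acid. Across genes, log2 fold changes ran with GC content, with Spearman correlations of 0.14 for carmine and 0.48 for carminic acid over 15454 genes, and LPIN3 transcripts hold 58.6% GC. With trends of GC and length removed from each library, LPIN3 stood at -0.44 with carmine and -0.36 with carminic acid. Without carmine library C the carmine value was -0.50. EMILIN3, the only gene annotated as overlapping LPIN3, had 417 counts in all libraries against 92634 for LPIN3.

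LPIN2 (chr18:2916994-3013144), the lipin mutated in Majeed syndrome, was the steadiest of the 10 genes, with a highest library only 1.10 times its lowest. Its levels were 243, 243 and 257 CPM in control, 237, 244 and 234 with carmine and 255, 252 and 247 with carminic acid. The groups overlapped in both comparisons with control. The log2 fold change was -0.06 (SE 0.06, adjusted p = 0.742, edgeR) with carmine and 0.02 (SE 0.06, adjusted p = 0.933) with carminic acid. The 95% interval for carmine ran from 0.878 to 1.05 times the control.

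LPIN1 (chr2:11677544-11827409), the lipin best known from muscle and fat, was the least abundant lipin. It stood at 33.8, 31.8 and 34.0 CPM in control, 36.2, 28.1 and 26.8 with carmine and 33.1, 29.2 and 31.3 with carminic acid. Carmine library A was the highest of all 9 and carmine library C the lowest, so the groups overlapped. Its log2 fold change was -0.13 (SE 0.11, adjusted p = 0.644, edgeR) with carmine and -0.09 (SE 0.11, adjusted p = 0.807) with carminic acid. Single carmine libraries moved the carmine value, to -0.28 without library A (adjusted p = 0.142, edgeR), -0.08 without library B and -0.04 without library C (adjusted p = 0.893, edgeR).

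Set against each other inside each library, where library scaling cancels, LPIN3 counts were 0.880, 0.968 and 0.758 times the LPIN2 counts in control. GC trends of the libraries need not cancel, as LPIN3 transcripts hold 58.6% GC and LPIN2 transcripts 48.9%. The ratio of LPIN3 to LPIN2 counts was 0.700, 0.564 and 0.717 with carmine and 0.658, 0.751 and 0.695 with carminic acid. All 6 treated ratios lay below the 3 control ratios, though carminic acid library B, at 0.751, came close to control library C, at 0.758. Per kilobase of annotated exon LPIN3 was the leading lipin in control, at 49.2 ± 4.66 CPM per kb against 39.8 ± 1.29 for LPIN2 and 5.45 ± 0.199 for LPIN1. With carmine the levels were 36.0 ± 3.89 for LPIN3 and 38.3 ± 0.800 for LPIN2, and with carminic acid 40.3 ± 2.59 and 40.3 ± 0.673. LPIN3 thus made up 52.0% ± 3.09 of the summed lipin level in control, 45.3% ± 3.10 with carmine and 47.0% ± 1.80 with carminic acid. The control shares, 48.8 to 54.9%, and the carminic acid shares, 45.3 to 48.9%, overlapped, and the carmine shares, 41.9 to 47.8%, did not overlap the control. These ratios rest on LPIN3 and are a description too.

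**Figure D2:**
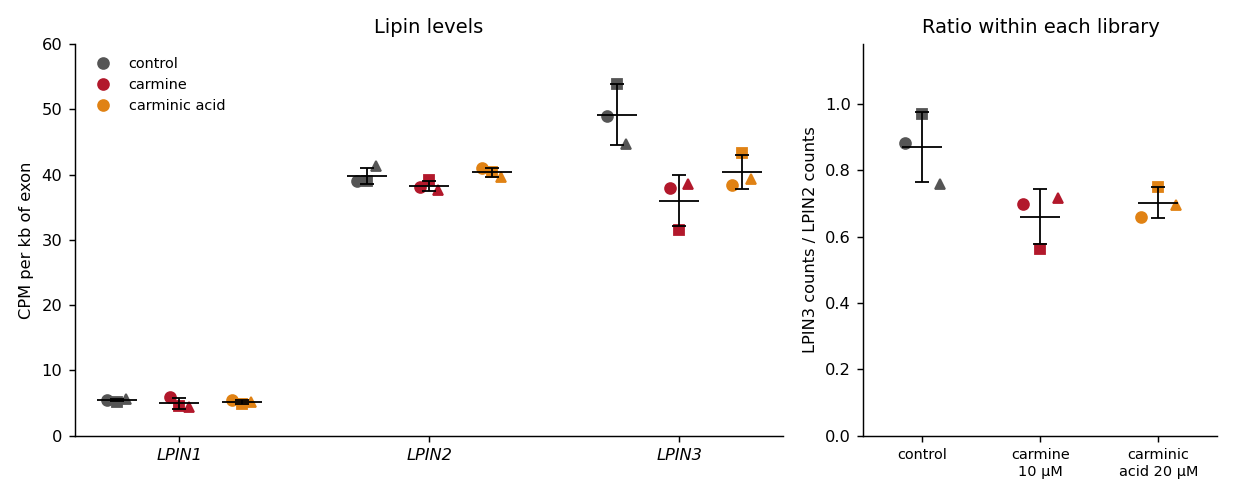
Left, level of the 3 lipins in CPM per kilobase of exon in each library (circle A, square B, triangle C) with mean ± SD (n = 3). Right, LPIN3 counts divided by LPIN2 counts within each library. LPIN2 has means of 39.8, 38.3 and 40.3 CPM per kb in control, carmine and carminic acid, and LPIN3 has means of 49.2 in control, 36.0 with carmine and 40.3 with carminic acid.

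The genes whose level over the 9 libraries was most like that of LPIN3, among the 9931 genes that averaged a log2 CPM of 3 or more, were SLC17A9, a vesicular nucleotide transporter (Pearson r = 0.976), ACTR5, a subunit of the INO80 chromatin remodeller (r = 0.975), and ANO9, an anoctamin (r = 0.971). SLC17A9 had group means of 83.6 CPM in control, 64.5 with carmine and 74.2 with carminic acid. ANO9 had means of 76.4, 56.1 and 64.7 CPM. In all, 33 genes reached an r above 0.9. None of the other 9 lipid genes was close to LPIN3 by this measure: their r with LPIN3 ran from -0.61 for FABP2 to 0.39 for DGAT1. The libraries share their depth and GC differences, so these correlations describe the 9 points only.

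Of the 10 genes, SLC27A4 had the largest positive log2 fold change in each comparison with control, and it did not pass the test in either. SLC27A4 (chr9:128340527-128361470) encodes FATP4, an acyl-CoA synthetase and fatty acid transport protein of the small intestine. It stood at 40.0, 39.7 and 35.2 CPM in control, 43.1, 40.0 and 53.0 with carmine and 41.6, 46.9 and 44.8 with carminic acid. All 3 carminic acid libraries were above all 3 controls, and carmine library B fell inside the control range. The log2 fold change with carmine was 0.25 (SE 0.10, adjusted p = 0.429, edgeR; unadjusted p = 0.0309). With carminic acid it was 0.21 (SE 0.10, adjusted p = 0.717, edgeR). Without carmine library C, its highest library, the carmine value was 0.12 (adjusted p = 0.541, edgeR). With trends of GC and length removed, the values were 0.21 with carmine (adjusted p = 0.0622, edgeR) and 0.13 with carminic acid (adjusted p = 0.601, edgeR). The GC content of SLC27A4 is 60.9%.

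ACSL5 (chr10:112374116-112428376), a long-chain acyl-CoA synthetase abundant in intestine, showed no difference beyond its spread. Its levels were 247, 253 and 253 CPM in control, 264, 263 and 235 with carmine and 245, 245 and 282 with carminic acid. The 3 controls lay within the range of each treated group. For ACSL5 the log2 fold change was 0.02 (SE 0.07) with carmine, with a 95% interval of 0.905 to 1.13 times the control, and 0.04 (SE 0.07) with carminic acid, with an interval of 0.918 to 1.15. ZDHHC6 overlaps ACSL5 and had 18161 counts against 128854, and whether counting used strand is not given in the sources used here. An unknown part of either count may belong to the other.

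The cytosolic fatty acid binding proteins, which carry fatty acids from the membrane to the endoplasmic reticulum, differed far more from each other than between groups. FABP1 (chr2:88122982-88128062), the liver type, stood at 211, 212 and 206 CPM in control, 183, 227 and 222 with carmine and 180, 236 and 237 with carminic acid. In both treated groups library A was below every control, and libraries B and C were above every control. The log2 fold change was 0.01 (SE 0.10, adjusted p = 0.988, edgeR) with carmine and 0.05 (SE 0.10, adjusted p = 0.892) with carminic acid. FABP2 (chr4:119317250-119322138), the intestinal type, was low, at 7.76, 8.09 and 8.92 CPM in control. It stood at 9.25, 10.3 and 8.56 CPM with carmine and at 8.32, 6.89 and 10.5 with carminic acid. The carmine libraries overlapped the control range and the carminic acid libraries spanned it. The log2 fold change of FABP2 was 0.18 (SE 0.14, adjusted p = 0.625, edgeR) with carmine and 0.05 (SE 0.14, adjusted p = 0.919) with carminic acid.

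The acyltransferases gave no call against control either. DGAT1, on chromosome 8, makes triglyceride from diacylglycerol and is the main such enzyme of the human intestine. It stood at 296, 282 and 243 CPM in control, 236, 229 and 327 with carmine and 269, 289 and 302 with carminic acid. Carmine libraries A and B were below every control and carmine library C was above every control. The log2 fold change with carmine was -0.05 (SE 0.12, adjusted p = 0.887, edgeR) and became -0.23 without carmine library C (adjusted p = 0.214, edgeR). With carminic acid it was 0.07 (SE 0.12, adjusted p = 0.880, edgeR). DGAT1 transcripts hold 63.2% GC, the most of the 10 genes, and DGAT1 overlaps HSF1 and 2 smaller genes, which together had 31489 counts against 139040 for DGAT1.

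MOGAT2 (chr11:75717838-75732953), the monoacylglycerol acyltransferase of the absorptive route, was near the lower end of what could be tested, with 59 to 95 counts per library. It stood at 1.40, 1.52 and 1.66 CPM in control, 1.24, 1.28 and 1.44 with carmine and 1.58, 1.20 and 1.07 with carminic acid. Both treated groups overlapped the control. MOGAT2 had a log2 fold change of -0.21 (SE 0.20) with carmine, with a 95% interval of 0.640 to 1.17 times the control, and of -0.25 (SE 0.20) with carminic acid, with an interval of 0.621 to 1.13. At this depth a difference of that size could not be told from none.

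PLIN2 (chr9:19108388-19127492), the perilipin that coats lipid droplets in most cell types, was close to level. It stood at 247, 264 and 260 CPM in control, 252, 283 and 257 with carmine and 256, 270 and 270 with carminic acid. The groups overlapped in both comparisons. On the log2 scale the fold change was 0.04 (SE 0.07), with a 95% interval of 0.929 to 1.14 times the control, with carmine. With carminic acid it was 0.05 (SE 0.07), with an interval of 0.934 to 1.14.

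Over the 9 tested genes, edgeR's quasi-likelihood test called 0 at an adjusted p under 0.05 with carmine (adjusted p 0.429 to 0.988) and 0 with carminic acid (0.717 to 0.933). That is also the share of all genes: 0.00% of 16017 were called in each comparison with control. DESeq2 and limma-voom called 0 of the 9 as well, while over all genes they called 81 and 51 with carmine and 6 and 82 with carminic acid. At an unadjusted p under 0.05, 1 of the 9 (SLC27A4) was reached with carmine, where 11.0% of all genes were, and 0 of 9 with carminic acid, where 6.43% of all genes were. With carmine 5 of the 9 were above control and 4 below, with a median log2 fold change of 0.01, the same as over all genes tested (0.01). With carminic acid 7 were above and 2 below, with a median of 0.05 against -0.01 over all genes.

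Groups that do not overlap were counted for these genes beside the share of all genes. With 9 genes such counts cannot be told from those shares. With carmine 0 of the 9 had all 3 libraries above the controls, against 7.32% of all genes, and 0 had all 3 below, against 7.67%. LPIN3, chosen for it, had all 3 below. With carminic acid SLC27A4 alone of the 9 lay fully above, against 12.0% of all genes, and 0 lay fully below, against 8.82%, with LPIN3 again below by choice.

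Carmine and carminic acid were also set against each other, at stated concentrations that differ (10 µM and 20 µM). Of the 9 tested genes 0 were called by edgeR, DESeq2 or limma-voom (edgeR adjusted p 0.745 to 0.983), against 0.00624% of all genes, which is 1 gene, CNIH1, a cargo receptor of the secretory route named here after its value was seen. At an unadjusted p under 0.05 it was 0 of 9 against 8.90% of all genes. LPIN2 lay fully lower with carmine, at 234 to 244 CPM against 247 to 255, with a log2 fold change of -0.08 (SE 0.06, adjusted p = 0.745, edgeR) and an interval of 0.866 to 1.04 times the carminic acid level. Of all genes 6.01% were fully lower and 7.09% fully higher, where the 9 had 0 fully higher. LPIN3 stood at -0.17 (SE 0.09) on the log2 scale, carmine below carminic acid, with overlapping groups, and at -0.07 with GC and length trends removed. For the other 8 genes the log2 values ran from -0.12 for DGAT1 to 0.13 for FABP2, and all 8 had overlapping groups. For SLC27A4 the value was 0.03, with an interval of 0.878 to 1.19 times. The 1 call that any setting gave was DGAT1 without carmine library C, lower with carmine than with carminic acid by a log2 fold change of -0.29 (adjusted p = 0.0379, edgeR). Over all genes 685 were called in that setting. With all libraries the DGAT1 value was -0.12 (adjusted p = 0.804, edgeR), so 1 library decides this value.

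**Figure D3:**
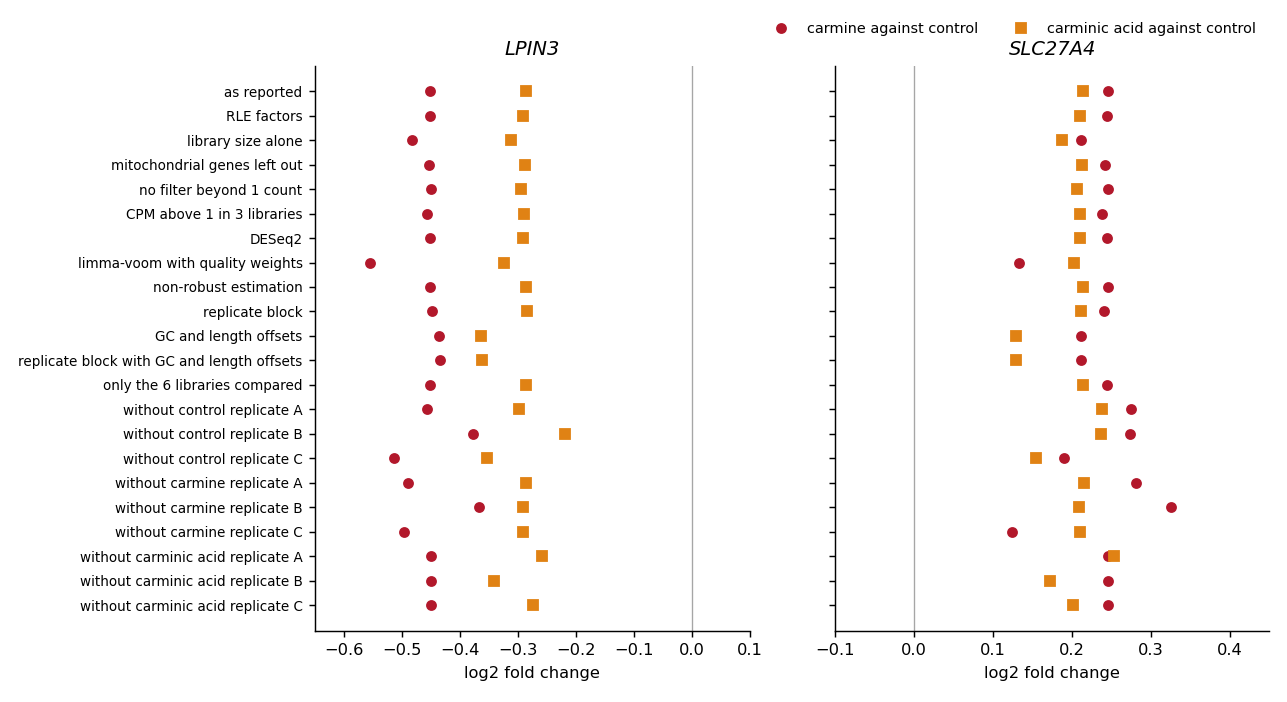
Log2 fold change of LPIN3 (left) and SLC27A4 (right) against control under the fit reported and 21 other settings, with circles for carmine and squares for carminic acid and a grey line at 0. LPIN3, selected on lying below the control in these libraries, runs from -0.56 to -0.37 with carmine and from -0.36 to -0.22 with carminic acid. SLC27A4 lies above 0 throughout, from 0.12 to 0.33 with carmine and from 0.13 to 0.25 with carminic acid. It passed the test under none of these settings. All settings draw on the same 9 libraries, so a constant sign carries no further evidence for either gene.

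In control libraries the genes spanned a wide range of levels per kilobase of exon. PLIN2 (112 ± 3.79 CPM per kb, SD, n = 3) and FABP1 (108 ± 1.60) led, and their libraries overlapped. DGAT1 (73.8 ± 7.49), ACSL5 (64.6 ± 0.993), LPIN3 (49.2 ± 4.66), LPIN2 (39.8 ± 1.29), SLC27A4 (12.3 ± 0.872), LPIN1 (5.45 ± 0.199), FABP2 (3.33 ± 0.241) and MOGAT2 (0.454 ± 0.0397) followed, and no neighbours in that order overlapped. PLIN2, FABP1 and DGAT1 were thus abundant in these cells, while FABP2 and MOGAT2 were low. MOGAT3, another gene of the acyltransferase list, was higher than MOGAT2 in control, at 13.5 ± 2.30 CPM per kb.

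**Figure D4:**
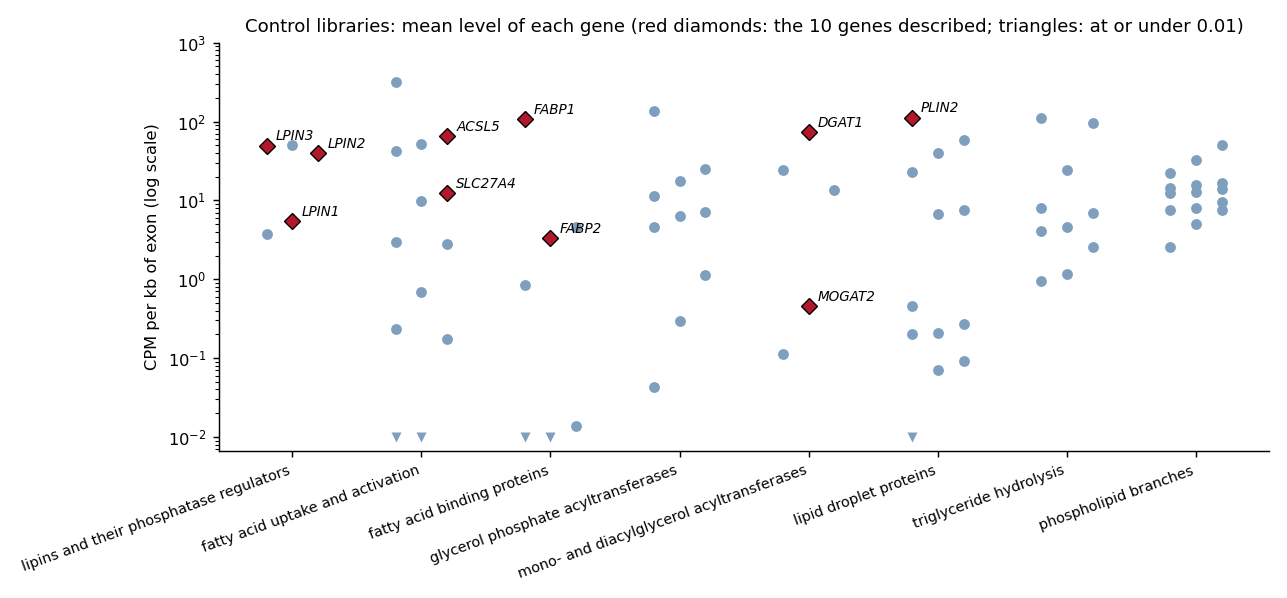
Mean level in the 3 control libraries of each gene of the 8 pathway lists, in CPM per kilobase of exon on a log axis, with the 10 genes described as red diamonds. Triangles mark genes at or under 0.01. PLIN2 at 112, FABP1 at 108 and DGAT1 at 73.8 sit near the top, and MOGAT2 at 0.454 is the lowest of the 10.

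The rest of the pathway was covered by 68 other genes in 8 lists, of which 59 could be tested. By edgeR, DESeq2 and limma-voom alike 0 of 59 were called in either comparison with control, and by edgeR at an unadjusted p under 0.05 it was 11 with carmine (8 above and 3 below) and 1 with carminic acid (below). These are 18.6% and 1.69% of the 59, where 11.0% and 6.43% of all genes were. With GC and length trends removed, 2 were called with carmine, LIPA and DGAT2 (adjusted p down to 0.0414, edgeR), where 1.31% of all genes were, and 0 with carminic acid, where 0.0259% were. With carmine 39 of the 59 were above control (66.1%, against 51.7% of all genes), with a median log2 fold change of 0.03. With carminic acid 36 were above (61.0%, against 48.1%), with a median of 0.02. Without carmine library C, a setting added after the data were seen, 36 of 60 genes were above with carmine and 10 reached an unadjusted p under 0.05. With carminic acid the latter number became 8. Over all genes, edgeR calls also rose from 0 in that setting, to 36 with carmine and 21 with carminic acid. The share of all genes at that unadjusted p is not given for it, and these counts describe the lists only. Between the compounds, at concentrations that differ, edgeR called 0 of the 59, and 4 reached an unadjusted p under 0.05 (6.78%, against 8.90% of all genes). DESeq2 and limma-voom each called 1 of the 59 there, CEPT1, which makes phosphatidylcholine and phosphatidylethanolamine from diacylglycerol (adjusted p 0.00443 and 0.0459), where they called 0.660% and 0.512% of all genes. CEPT1, named after its value was seen, stood at 32.6, 32.3 and 31.6 CPM in control, 37.0, 37.7 and 38.9 with carmine and 28.9, 28.6 and 31.6 with carminic acid, with a log2 fold change between the compounds of 0.35 (SE 0.08, adjusted p = 0.243, edgeR). Without carmine library C edgeR called 3 of 60 there, all higher with carmine: CEPT1 (adjusted p = 0.0178), ABHD5, the co-activator of the lipase PNPLA2 (0.0438), and LIPA (0.0468). Over all genes it called 685 in that setting, against 1 with all libraries, so such calls are not particular to these lists.

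From each list the gene with the smallest p in a comparison with control and the gene with the highest level are given next, and none passed the adjusted test in the fit without those trends removed. DGAT2, the other enzyme that closes triglyceride, stood at 62.5, 61.2 and 55.6 CPM in control, 68.9, 66.6 and 78.0 with carmine and 65.8, 67.9 and 62.1 with carminic acid. All carmine libraries were above all controls, with a log2 fold change of 0.25 (SE 0.08, adjusted p = 0.374, edgeR). For carminic acid it was 0.13 (SE 0.08, adjusted p = 0.717, edgeR). AGPAT2, which makes phosphatidic acid, the substrate of the lipins, had 203 ± 7.99 CPM in control, 243 ± 48.2 with carmine and 232 ± 10.4 with carminic acid. Its carmine libraries were 206, 225 and 298 CPM, with library C again the highest. Its carmine log2 fold change was 0.26 (adjusted p = 0.422, edgeR) and 0.09 without library C (adjusted p = 0.592, edgeR).

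LDAF1, which works with seipin where droplets form, stood at 14.8 ± 1.22 CPM in control, 17.7 ± 1.04 with carmine and 14.5 ± 1.04 with carminic acid (carmine adjusted p = 0.391, edgeR). PLIN3, the most abundant droplet gene of its list after PLIN2, had 135 ± 4.90, 161 ± 36.4 and 158 ± 5.37 CPM, with 203 in carmine library C. For PLIN3 the carmine log2 fold change was 0.25 with all libraries and 0.06 without that one. LIPA, the lysosomal acid lipase, had 335 ± 6.64, 384 ± 15.3 and 339 ± 12.6 CPM, and its carmine libraries did not overlap the control (log2 fold change 0.20, SE 0.06, adjusted p = 0.375, edgeR). CHPT1, which turns diacylglycerol into phosphatidylcholine, had 111 ± 2.04, 130 ± 10.2 and 119 ± 1.80 CPM (carmine adjusted p = 0.372, edgeR).

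CTDNEP1, the phosphatase that activates lipins by removing their phosphates, had 105 ± 2.47 CPM in control, 115 ± 6.29 with carmine and 114 ± 3.36 with carminic acid. All treated libraries were above all controls, with log2 fold changes of 0.13 (SE 0.07, adjusted p = 0.479, edgeR) and 0.12 (SE 0.07, adjusted p = 0.717, edgeR). CNEP1R1, its regulatory partner, had 11.8 ± 0.852, 12.9 ± 1.08 and 11.9 ± 0.324 CPM, with overlap. DBI, the acyl-CoA binding protein and the most abundant gene of the uptake list, stood at 464 ± 41.2, 476 ± 72.3 and 441 ± 25.0 CPM. ACSL6, an acyl-CoA synthetase known from brain, was low, at 1.28 ± 0.158, 1.05 ± 0.0313 and 0.890 ± 0.0940 CPM. All its treated libraries were below all its controls, with an adjusted p of 0.592 (edgeR) for carmine and 0.717 (edgeR) for carminic acid. Of all genes, 7.32% lay fully above and 7.67% fully below control with carmine. With carminic acid these shares were 12.0% and 8.82%. FABP6, the bile acid binding protein of the ileum, had 4.04 ± 0.619, 4.69 ± 0.573 and 4.44 ± 0.600 CPM (carmine adjusted p = 0.606, edgeR).

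**Figure D5:**
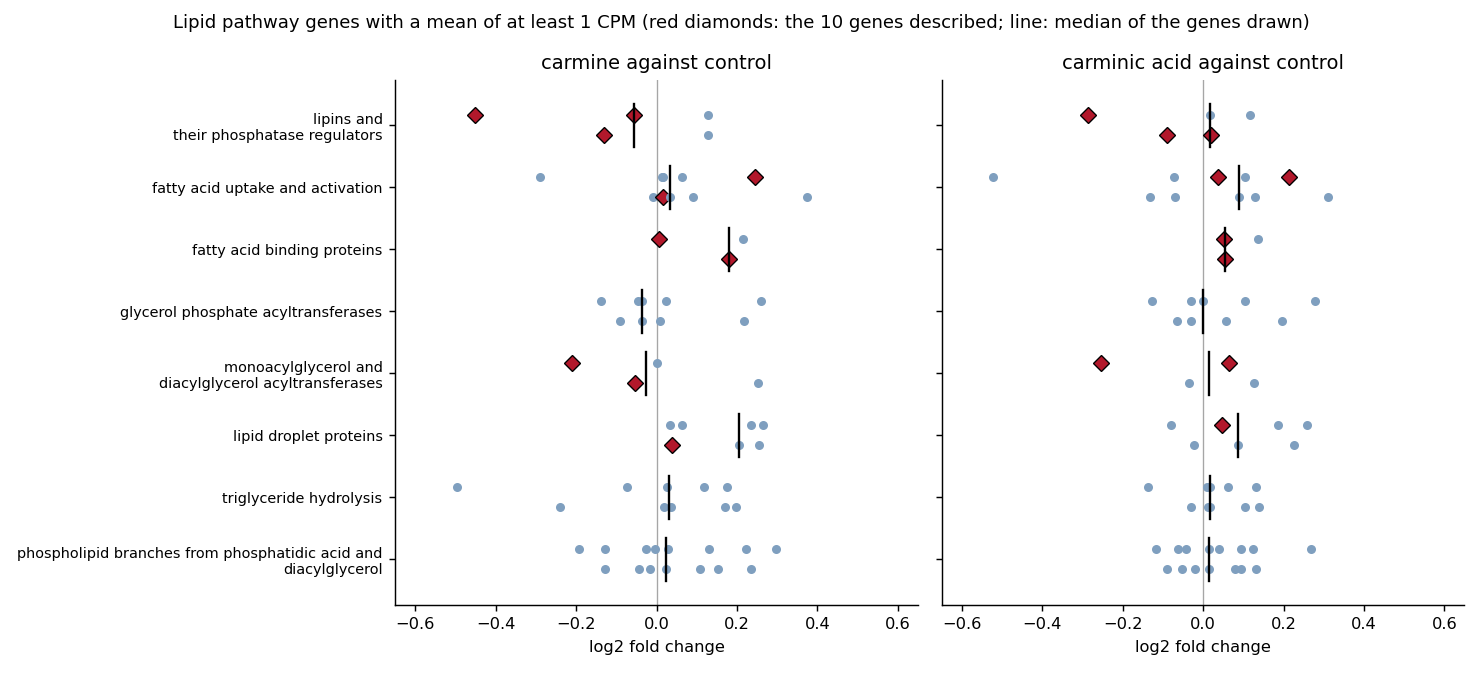
Log2 fold change against control of the genes of each pathway list with a mean of at least 1 CPM, for carmine (left) and carminic acid (right). Red diamonds are the 10 genes described, blue points the others, and black lines the median of the genes drawn. LPIN3, at -0.45 and -0.29, is the lowest point of the lipin list in both panels, and the other lipins, CTDNEP1 and CNEP1R1 lie between -0.13 and 0.13.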

How the data were processed

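RNA-seq of 9 Caco-2 libraries, 3 per group, was analysed from the deposited counts. The authors deposited raw counts per gene by NCBI Gene ID, 1 file per library, with reads aligned by HISAT2, per the file headers. Per the submitters' processing notes, the tools were FastQC, HISAT and featureCounts and the build was hg38, with no versions. Strand setting and handling of reads with several map positions: not given in the sources used here.

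Gene symbols came from the RefSeq table of GRCh38.p14, which named 27745 of 28395 IDs. Genes without a symbol held 0.0432% of counts. In R 4.3.3 with edgeR 4.0.16, genes were filtered with filterByExpr by group (16017 left), scaled by TMM and fitted over all 9 libraries in 1 robust quasi-likelihood model without covariates, with 3 contrasts tested two-sided. Benjamini-Hochberg adjustment ran over all 16017 genes for each contrast (threshold 0.05), and 95% intervals come from the fit. Genes varied between replicates with a biological coefficient of variation of 10.9%. TMM-scaled CPM are printed as mean ± SD, and levels per kb use the union of GENCODE v29 exons. GC content and length were known for 96.48% of tested genes.

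The members and lists were chosen with earlier results of these data known. All members are named, and from each list the other gene with the smallest p and the one with the highest level. Overlap means overlap of TMM-scaled CPM between groups. Alternatives used DESeq2 1.42.0 and limma 3.58.1 among 21 settings. Replicate pairs of a group differed beyond counting noise (chi-square per degree of freedom at least 9.51). The code was tested on simulated data. The promoter table lacked 3 of the 10 genes and no promoter was analysed.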

Additional observations from a re-analysis of the deposited data

How the results depend on the processing

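Of the 9 tested genes 0 were called against control under every one of the 21 settings. Between the compounds 1 (DGAT1) was called without carmine library C, where 685 of all genes were called. The number was 0 otherwise, so leaving out single libraries gave 0 to 1. Signs against control changed under at least 1 setting for LPIN2, DGAT1, ACSL5 and FABP1 with both compounds, for PLIN2 with carmine and for FABP2 with carminic acid, each with a reported log2 fold change within 0.07 of 0.

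Counts of called genes over the whole table moved more than these genes did. With carmine, where 0 genes were called, RLE factors, library size alone and leaving out mitochondrial genes each gave 7, no filter 19, DESeq2 81, limma-voom 51, GC and length offsets 203, and the 6 libraries compared alone 12. With carminic acid, also 0, no filter gave 2, DESeq2 6, limma-voom 82, GC and length offsets 4 and the 6 libraries alone 49. Between the compounds, where 1 gene was called, RLE factors, library size alone and leaving out mitochondrial genes gave 2 each, no filter 9, DESeq2 77, limma-voom 82, non-robust estimation 0 and GC and length offsets 6. Leaving out single libraries gave 0 to 36 genes with carmine (36 without carmine library C), 0 to 21 with carminic acid (21 without the same library) and 0 to 685 between the compounds (685 without it). The cause was not tested.

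No label says whether the letters A, B and C pair the libraries. Deviations of same-letter libraries correlated between -0.149 and 0.0952, and those of libraries with different letters between -0.162 and 0.156. The libraries also differ in GC trend, so these values cannot decide whether the letters pair them. With the letter as a replicate block 0 genes were called in each of the 3 comparisons, and with the block and GC and length offsets 407, 10 and 9. The block called 0 of the 9 genes. The depth limits MOGAT2, with 59 to 95 counts per library.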
